A study of Mus musculus with 12 samples.

Results

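The set comprised 10 genes of bone morphogenetic protein (BMP) signalling, namely the ligand genes Bmp2, Bmp4 and Bmp7 and 7 genes that BMP signalling induces, Id1, Id2, Id3, Id4, Smad6, Smad7 and Bambi. They were taken by name, and each was looked up among the 40039 loci of the merged transcript models. Of the 10 genes, 9 had a locus of their own and 8 could be tested on read counts. Bmp4 was read in FPKM (fragments scaled by the authors to transcript length and library size), and Id1 had no locus of its own. The study profiled poly(A) RNA in 12 libraries of mouse embryonic stem (ES) cells of strain C57BL/6J, with 3 libraries in each of 4 groups. These were Notch1-/- embryoid bodies at day 6, wild-type (WT) embryoid bodies at day 6, undifferentiated Notch1-/- cells at day 0 and undifferentiated WT cells at day 0. Both genotypes were kept with leukaemia inhibitory factor (LIF) on embryonic fibroblast feeders or on gelatin, and day 6 cells had been aggregated in hanging drops to start cardiac differentiation. The labels do not state which libraries had feeders, how Notch1 was deleted or how many cell lines each genotype stands for. The series text calls the 3 libraries of a group biological replicates without naming the unit, so the p-values measure the spread between these libraries.

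BMP ligands bind pairs of type I and type II receptors, which phosphorylate SMAD1, SMAD5 and SMAD9. These enter the nucleus with SMAD4 and switch on target genes. The Id genes encode helix-loop-helix proteins that block differentiation factors and are among the most direct targets of the pathway. SMAD6, SMAD7 and the pseudoreceptor BAMBI are induced inhibitors that feed back on the receptors. In the mouse embryo BMP signals are needed for mesoderm and heart formation, and in ES cells they act with LIF to maintain the undifferentiated state.

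The loci lay as follows in the mm9 build. Bmp2 was read at chr2:133377889-133388659, Bmp4 at chr14:47003196-47010274 and Bmp7 at chr2:172693157-172766345. Id2 was at chr12:25778657-25781619, Id3 at chr4:135697399-135701818 and Id4 at chr13:48356379-48361391. Smad6 was at chr9:63800883-63869866, Smad7 at chr18:75526984-75556100 and Bambi at chr18:3506917-3517587. All 2204 exon bases of the Bmp4 locus were shared with the locus of Gm15217 on the opposite strand, and Bmp4 had 0 counts in all 12 libraries. Its FPKM values, between 5.21 and 69.1, cannot be told apart from antisense reads, since no strand setting is given. The Gm15217 locus itself averaged 8.44 ± 5.29 CPM in Notch1-/- day 6 libraries and 28.4 ± 2.08 CPM in WT day 6 libraries (SD, n = 3 each). In FPKM it averaged 0.902 ± 0.55 and 3.15 ± 0.182 in these groups, beside 16.2 ± 9.72 and 63.9 ± 4.92 FPKM for Bmp4. How reads of the shared bases were divided between the loci is not stated.

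The library labels were first checked against Notch1 itself. Notch1 had 6.80, 4.90 and 4.95 CPM (read counts scaled to the library total) in Notch1-/- day 6 libraries, against 38.0, 30.8 and 31.1 CPM in WT day 6 libraries. At day 0 it had 3.80, 3.87 and 4.59 CPM in Notch1-/- libraries, against 61.6, 24.7 and 34.0 CPM in WT libraries. Every Notch1-/- library lay below every WT library, although reads of the locus remained in all of them. The libraries held between 100637179 and 134662426 counts each. Of the cell markers, Nanog ranged from 186 to 345 FPKM in Notch1-/- cells at day 0 and from 151 to 272 FPKM in WT cells at day 0. At day 6 Nanog ranged from 119 to 142 FPKM in Notch1-/- libraries and from 47.4 to 58.3 FPKM in WT libraries. Of the exon length of Nanog, 53.72% is shared with other loci. The stem cell marker Zfp42, without shared exons, overlapped at day 6, at 113 to 155 CPM in Notch1-/- and 93.3 to 124 CPM in WT libraries. At day 0 Zfp42 ranged from 477 to 769 CPM in Notch1-/- and from 623 to 1000 CPM in WT libraries. The 7 usable markers of cardiac and lateral mesoderm summed to 107 to 366 CPM in Notch1-/- day 6 libraries and to 599 to 959 CPM in WT day 6 libraries, against sums of 14.0 to 24 CPM in Notch1-/- and 9.19 to 14.7 CPM in WT day 0 libraries.

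The promoters of 3 genes are shown, 250 bases up to the annotated start, because Smad6 and Bmp4 were lower in Notch1-/- embryoid bodies while Id4 did not pass the test there. They are RefSeq sequences of build GRCm38.p6, which differs from the build of the counts, and capitals mark GGCGCC and GGAGCC or its reverse complement GGCTCC, short GC-rich motifs bound by SMAD proteins. Smad6 lay at chr9:64022060-64022309 on the minus strand, Bmp4 at chr14:46390670-46390919 on the minus strand and Id4 at chr13:48260866-48261115 on the plus strand.
Smad6: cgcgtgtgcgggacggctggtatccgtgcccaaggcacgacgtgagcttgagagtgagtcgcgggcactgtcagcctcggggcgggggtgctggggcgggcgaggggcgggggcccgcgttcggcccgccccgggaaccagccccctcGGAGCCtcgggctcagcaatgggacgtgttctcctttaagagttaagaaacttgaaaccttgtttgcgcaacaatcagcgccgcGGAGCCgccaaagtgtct
Bmp4: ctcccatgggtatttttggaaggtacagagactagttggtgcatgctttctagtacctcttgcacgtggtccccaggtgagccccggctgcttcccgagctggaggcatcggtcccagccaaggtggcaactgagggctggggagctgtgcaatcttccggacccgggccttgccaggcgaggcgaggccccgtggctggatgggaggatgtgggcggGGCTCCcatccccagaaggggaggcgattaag
Id4: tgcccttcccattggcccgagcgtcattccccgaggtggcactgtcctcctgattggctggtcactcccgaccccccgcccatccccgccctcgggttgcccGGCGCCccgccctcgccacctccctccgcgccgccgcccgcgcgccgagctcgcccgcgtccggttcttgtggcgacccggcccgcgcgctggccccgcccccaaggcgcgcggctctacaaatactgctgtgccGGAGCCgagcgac
The Smad6 stretch held GGAGCC at 102 to 97 and again at 18 to 13 bases before the start. The Bmp4 stretch held GGCTCC at 32 to 27 bases before it. The Id4 stretch held GGCGCC at 148 to 143 bases and GGAGCC at 13 to 8 bases before it. Searched on both strands, GGCGCC occurred in 9.59% and GGAGCC in 26.0% of 32851 promoter windows of the same length, and the 2 motifs do not overlap here. G and C made up 66.8% of the Smad6, 63.2% of the Bmp4 and 75.6% of the Id4 window, against a median of 52.4% over all windows. These shares are therefore not a background matched for base content. A match is a description of letters only, and genes with and without a called difference at day 6 held them. Windows were available for 5 of the 10 genes. Those of Id2 and Id3 are not shown because they overlap annotated exons, over 161 and 250 bases. Like Id4, the Id2 window held both motifs, and the Id3 window held GGCTCC.

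In day 6 embryoid bodies most of the set was lower without Notch1. Bmp2, Id2, Id3, Smad6, Smad7 and Bambi fell in Notch1-/- relative to WT embryoid bodies, by 2.28-fold for Smad7 to 10.2-fold for Id2. Id4 and Bmp7 did not pass the test. Tested on counts with edgeR's quasi-likelihood method, at a Benjamini-Hochberg adjusted p under 0.05, 0 of the 8 genes were higher and 6 were lower. Of the 23991 loci tested, 13.7% were higher, 14.4% lower and 28.1% differed in either direction. The median log2 difference was -1.83 over the 8 genes and 0.01 over all loci. For the same 6 genes every Notch1-/- library lay below every WT library, which held for 29.4% of all loci. In bulk RNA, fewer cells of a type and less RNA per cell cannot be told apart.

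**Figure D1:**
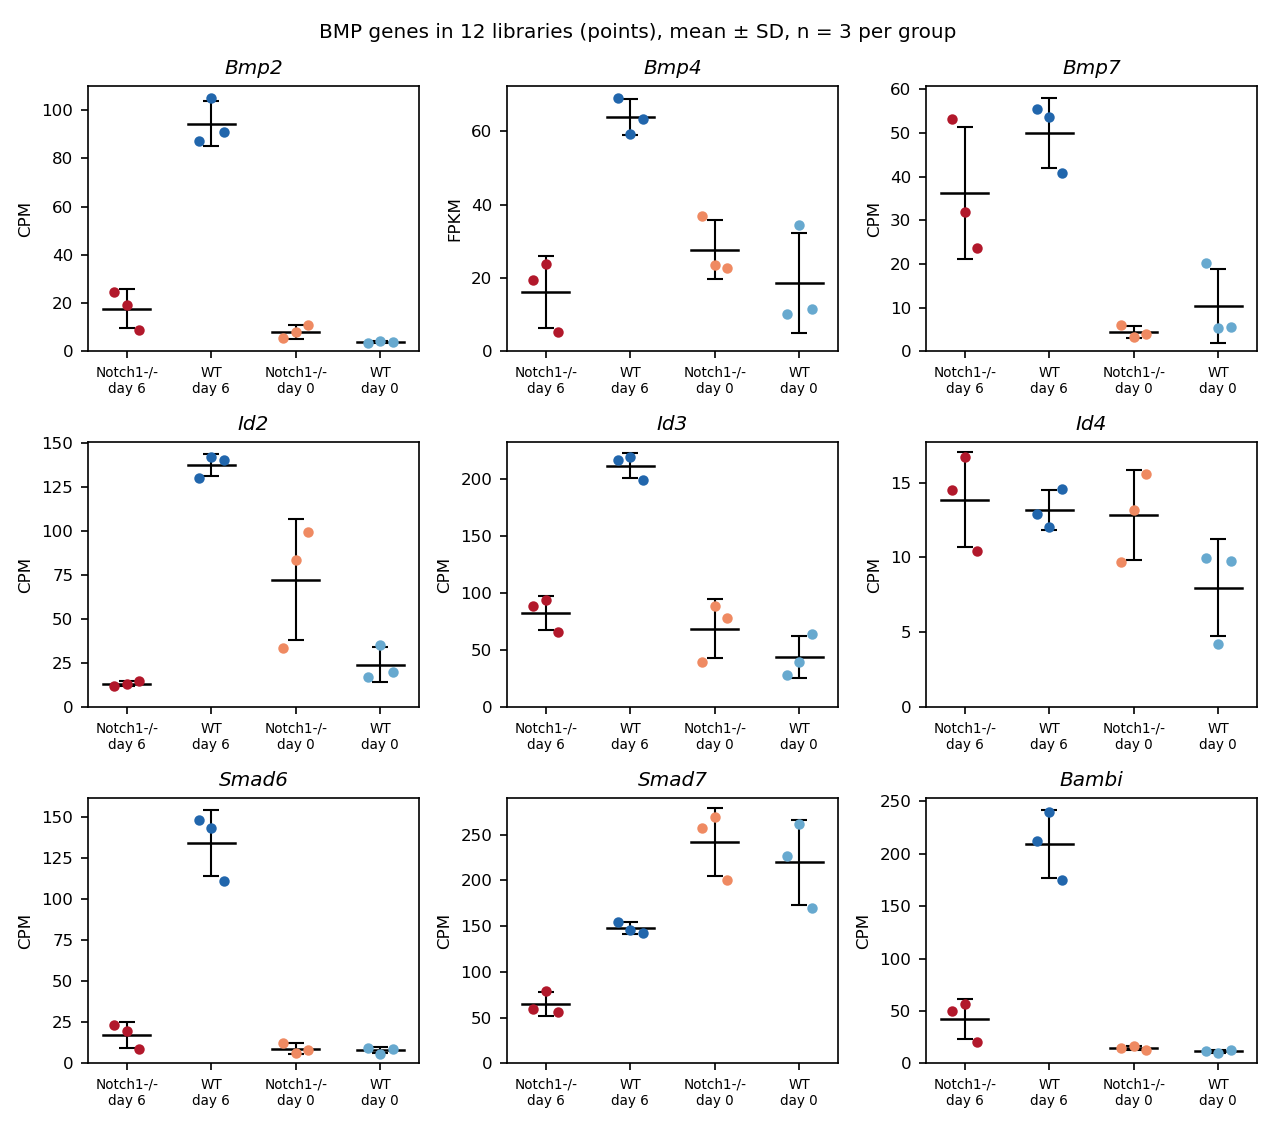
Level of each gene in every library (points; CPM, or FPKM for Bmp4) with the group mean and SD, n = 3 per group, each panel on its own axis from 0. At day 6 the Notch1-/- points lie below all WT points for Bmp2, Bmp4, Id2, Id3, Smad6, Smad7 and Bambi, while those of Bmp7 and Id4 overlap.

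Among the ligands, Bmp2 had 24.8, 19.1 and 8.93 CPM in Notch1-/- day 6 libraries, against 87.4, 105 and 91.1 CPM in WT day 6 libraries. Its day 0 levels were 5.36, 7.98 and 10.9 CPM in Notch1-/- libraries, against 3.50, 4.46 and 3.79 CPM in WT libraries. WT embryoid bodies thus stood apart from the other 3 groups, and the third Notch1-/- embryoid body library lay within the Notch1-/- day 0 range. The log2 difference between Notch1-/- and WT at day 6 was -2.42 (SE 0.33, adjusted p = 0.000246, edgeR). Bmp2 was 2.18-fold higher at day 6 than at day 0 in Notch1-/- cells and 24.1-fold higher in WT cells. The difference between these changes was -3.47 on the log2 scale (SE 0.46, adjusted p = 0.000689, edgeR). The rise in Notch1-/- cells (1.12, adjusted p = 0.0168, edgeR) lost its call without day 6 library 1 (0.80, adjusted p = 0.0863) or without day 0 library 1 (0.88, adjusted p = 0.0513).

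Bmp4 had 19.5, 23.8 and 5.21 FPKM in Notch1-/- day 6 libraries, against 69.1, 59.3 and 63.2 FPKM in WT day 6 libraries. Before differentiation it had 36.9, 23.5 and 22.8 FPKM in Notch1-/- libraries, against 10.1, 34.4 and 11.5 FPKM in WT libraries. WT embryoid bodies were highest and did not overlap any other group, and the other 3 groups overlapped one another. On the log2(FPKM + 1) scale, which understates changes of low genes, Bmp4 was lower by 2.14 in Notch1-/- than in WT embryoid bodies (difference -2.14, SE 0.53, adjusted p = 0.0124, limma), where 15% of 18505 loci were lower. Leaving out 1 library moved this difference to between -2.52 (without Notch1-/- day 6 library 2) and -1.52 (without library 3), with an adjusted p of at most 0.0454. It was higher at day 6 than at day 0 in WT cells (1.93, SE 0.53, adjusted p = 0.0132, limma), where 20.8% of loci were higher. In Notch1-/- cells the value was -0.94 (adjusted p = 0.199, limma, with 32.3% of loci called), and for the genotypes at day 0 it was 0.72 (adjusted p = 0.385, limma, with 6.83% called). The changes by day 6 differed between the genotypes by -2.86 (SE 0.74, adjusted p = 0.0302, limma), where 6.37% of loci were lower. That call was lost in 6 of the 12 fits that left out a library, at adjusted p of up to 0.0734.

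Bmp7 was the ligand that did not pass the test between the genotypes at day 6. It had 53.1, 31.9 and 23.7 CPM in Notch1-/- day 6 libraries, against 55.5, 53.6 and 40.9 CPM in WT day 6 libraries. At day 0 it had 6.03, 3.20 and 4.01 CPM in Notch1-/- libraries, against 20.2, 5.36 and 5.51 CPM in WT libraries. It rose in both genotypes by day 6, 8.21-fold in Notch1-/- cells (adjusted p = 0.000647, edgeR) and 4.83-fold in WT cells (adjusted p = 0.00246, edgeR). Without WT day 0 library 1, at 20.2 CPM, the log2 change in WT cells was 3.20 in place of 2.27, above the 3.04 of Notch1-/- cells. The log2 difference at day 6 was -0.46 with a 95% interval of -1.53 to 0.60, and the difference between the changes was 0.77 (interval -0.75 to 2.28, adjusted p = 0.509, edgeR). Within the ligands, then, the groups separated at day 6 for Bmp2 and Bmp4 and overlapped for Bmp7.

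Among the Id genes, Id2 moved in opposite directions in the 2 genotypes. It had 12.1, 13.1 and 15 CPM in Notch1-/- day 6 libraries, against 130, 142 and 140 CPM in WT day 6 libraries. Its day 0 levels were 33.8, 83.4 and 99.6 CPM in Notch1-/- libraries, against 17.0, 35.3 and 20.2 CPM in WT libraries. WT embryoid bodies were highest and Notch1-/- embryoid bodies lowest of the 4 groups, and the day 0 groups overlapped between them. From day 0, Id2 fell 5.40-fold in Notch1-/- cells (log2 -2.43, SE 0.35) and rose 5.68-fold in WT cells (log2 2.50, SE 0.35). At day 6 it was lower in Notch1-/- than in WT cells by 3.36 on the log2 scale (difference -3.36, SE 0.37), and the changes differed by -4.94 (SE 0.50, adjusted p = 0.000162, edgeR). Leaving out any 1 library kept that value between -5.33 and -4.66, with an adjusted p of at most 0.000853.

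Id3 had 89.2, 93.8 and 65.7 CPM in Notch1-/- day 6 libraries, against 217, 219 and 199 CPM in WT day 6 libraries. Before differentiation it had 39.7, 88.9 and 78.4 CPM in Notch1-/- libraries, against 28.1, 39.6 and 64.6 CPM in WT libraries. The Notch1-/- day 6 and day 0 libraries overlapped, and every library outside the WT embryoid bodies lay below all 3 of these. Id3 was 2.56-fold lower in Notch1-/- than in WT embryoid bodies (log2 -1.35, SE 0.31, adjusted p = 0.00638, edgeR). It rose 4.80-fold in WT cells by day 6, with a log2 value of 0.26 (interval -0.44 to 0.97) in Notch1-/- cells. The changes differed by -2.0 (SE 0.44, adjusted p = 0.0117, edgeR).

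Id4 was low in all 4 groups, which overlapped at day 6. It had 14.5, 16.7 and 10.4 CPM in Notch1-/- day 6 libraries, against 12.9, 12 and 14.6 CPM in WT day 6 libraries. At day 0 it had 9.68, 13.2 and 15.6 CPM in Notch1-/- libraries, against 9.98, 4.24 and 9.74 CPM in WT libraries. No comparison of Id4 passed the test with edgeR, while DESeq2 called it higher at day 6 in WT cells (log2 0.78, adjusted p = 0.0377). At day 6 the log2 difference between Notch1-/- and WT was 0.08 with an interval of -0.63 to 0.78, which does not reach the values of Id2 and Id3. Part of its locus, 9.58% of the exon length, is shared with the opposite-strand gene A330033J07Rik. The test of whether the change by day 6 differed between the genotypes gave -0.61 (interval -1.61 to 0.39, adjusted p = 0.410, edgeR).

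Id1 could not be measured by itself. In the merged models its 2 exons, at chr2:152562010-152563146, were joined to the neighbouring gene H13, a signal peptide peptidase, and all 911 of their bases were shared with a locus on the opposite strand. The merged locus had 62.4, 58.9 and 34.2 FPKM in Notch1-/- day 6 libraries, against 124, 127 and 125 FPKM in WT day 6 libraries. Its counts ran the other way, with 9.03, 9.73 and 7.94 CPM in Notch1-/- day 6 libraries against 4.45, 4.79 and 4.03 CPM in WT day 6 libraries. The 2 measures of the same locus therefore gave opposite directions at day 6, each with groups that did not overlap. They need not read the same gene. Reads touching 2 loci appear to be missing from the counts, so the counts may hold H13 reads and few or none of Id1. The FPKM may hold reads of Id1, of H13 and of the opposite strand, and no direction is given for Id1.

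Among the induced inhibitors, Smad6, which blocks BMP receptor signalling, had 23.5, 19.7 and 8.70 CPM in Notch1-/- day 6 libraries, against 148, 143 and 111 CPM in WT day 6 libraries. Its day 0 levels were 12.4, 5.99 and 8.15 CPM in Notch1-/- libraries, against 9.58, 5.85 and 8.69 CPM in WT libraries. The day 0 groups overlapped throughout, and the third Notch1-/- embryoid body library lay within the day 0 range. Smad6 was 7.75-fold lower in Notch1-/- than in WT embryoid bodies (log2 -2.95, SE 0.36, adjusted p = 0.000112, edgeR). It rose 16.6-fold by day 6 in WT cells, and the changes differed by -3.09 (SE 0.49, adjusted p = 0.0020, edgeR). In Notch1-/- cells the value was 1.95-fold higher (adjusted p = 0.0428, edgeR), a call that was lost in 8 of the 12 fits that left out a library, at adjusted p of 0.0503 to 0.175. It was also lost under upper-quartile scaling (adjusted p = 0.0709), from FPKM (adjusted p = 0.0956, limma) and with the Notch1-/- libraries alone (adjusted p = 0.107).

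Bambi, a receptor-like protein without a kinase domain, followed the same order. It had 49.5, 56.8 and 20.8 CPM in Notch1-/- day 6 libraries, against 212, 240 and 175 CPM in WT day 6 libraries. Before differentiation it had 14.7, 16.2 and 12.5 CPM in Notch1-/- libraries, against 11.3, 10.1 and 12.5 CPM in WT libraries. All Notch1-/- embryoid body libraries lay above all day 0 libraries and below all WT embryoid bodies. Bambi rose 2.93-fold by day 6 in Notch1-/- cells (adjusted p = 0.00137, edgeR) and 18.5-fold in WT cells (adjusted p = 2.61e-06, edgeR). At day 6 it was 4.93-fold lower in Notch1-/- than in WT cells (log2 -2.30, SE 0.29), and the changes differed by -2.66 (SE 0.40, adjusted p = 0.00153, edgeR).

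Smad7, which blocks both the BMP and the TGF-beta branch, was higher at day 0 than at day 6 in both genotypes. It had 59.2, 79.6 and 55.6 CPM in Notch1-/- day 6 libraries, against 155, 146 and 142 CPM in WT day 6 libraries. At day 0 it had 257, 269 and 200 CPM in Notch1-/- libraries, against 227, 262 and 170 CPM in WT libraries. It fell 3.74-fold by day 6 in Notch1-/- cells (log2 -1.90, SE 0.19, adjusted p = 2.31e-05, edgeR), and the days did not overlap in either genotype. The fall in WT cells was 1.49-fold (log2 -0.57, SE 0.18, adjusted p = 0.0224, edgeR), and it lost its call in 4 of the 12 fits, without WT day 0 library 2 or without any 1 of the WT day 6 libraries. The changes differed by -1.33 (SE 0.26, adjusted p = 0.00643, edgeR).

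**Figure D2:**
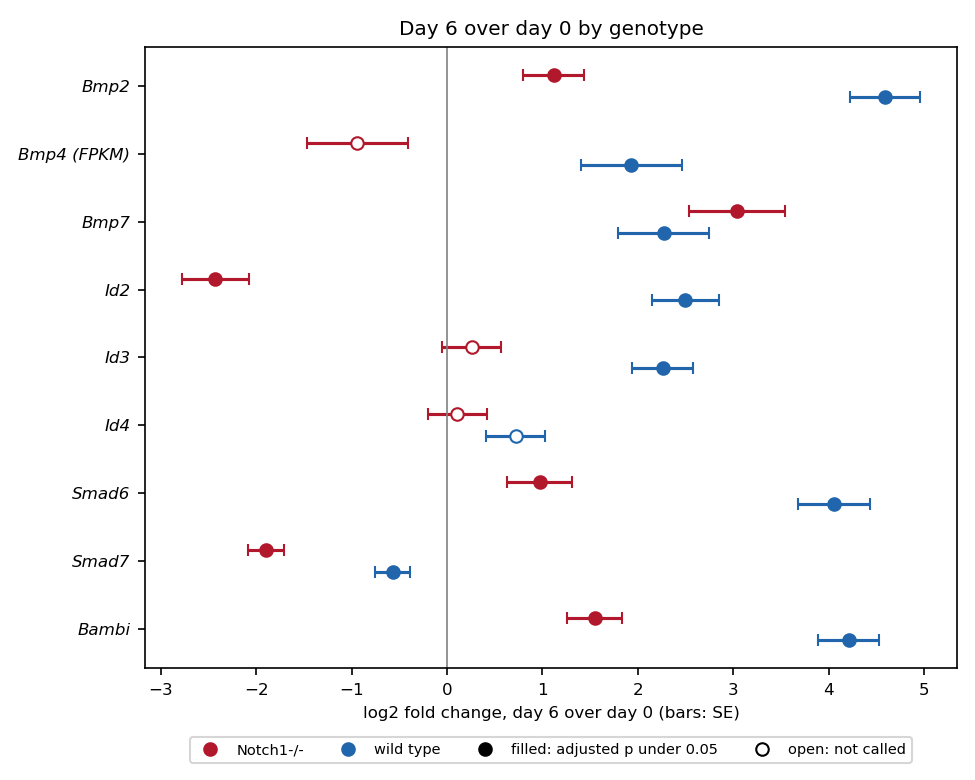
Log2 fold change of day 6 over day 0 (points) with its SE (bars) in Notch1-/- and WT cells for 9 genes, from counts and, for Bmp4, from log2(FPKM + 1); filled points passed adjusted p under 0.05. Id2 lies at -2.43 in Notch1-/- cells and at 2.50 in WT cells, Bmp7 lies above 0 in both, and Smad7 lies below 0 in both.

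Counted over the 8 genes, day 6 differed from day 0 in Notch1-/- cells for 4 higher and 2 lower genes, where 17.2% of all loci were higher, 18.7% lower and 35.9% either. In WT cells 6 genes were higher and 1 was lower, where 18.4% of all loci were higher, 24.7% lower and 43.1% either. The median log2 change was 0.62 in Notch1-/- cells and 2.39 in WT cells, beside -0.02 and -0.12 over all loci in the same 2 comparisons. Upper-quartile scaling moved these medians over all loci to -0.18 in Notch1-/- cells and -0.29 in WT cells. The test of the difference between the changes called 0 genes higher and 6 lower, Bmp2, Id2, Id3, Smad6, Smad7 and Bambi, where 6.36% of all loci were higher, 4.92% lower and 11.3% either. The median difference was -2.33 over the 8 genes and 0.08 over all loci. The comparisons share their day 6 and day 0 libraries, so that their values are not independent of one another.

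At day 0 the genotypes differed for 1 of the 8 genes in the main fit, which did not pair the libraries. Of all loci, 3.71% were higher, 5.86% lower and 9.56% either. Id2 was 2.99-fold higher in Notch1-/- than in WT cells (log2 1.58, SE 0.34, adjusted p = 0.0127, edgeR). It was higher in each of the 3 pairs of libraries with the same replicate number in their titles, which need not be true pairs. The lowest Notch1-/- library, at 33.8 CPM, lay below the highest WT library, at 35.3 CPM. The call was lost without WT day 0 library 1 (adjusted p = 0.0582) or library 3 (adjusted p = 0.0538), and in a fit of the day 0 libraries alone (1.60, adjusted p = 0.0795). With the replicate number as a block it was kept, over all libraries and over the day 0 libraries alone. Bmp2 did not overlap between the genotypes, at 5.36 to 10.9 CPM in Notch1-/- cells and 3.50 to 4.46 CPM in WT cells, as 8.65% of all loci did in this direction, and missed the threshold (log2 1.05, SE 0.32, adjusted p = 0.0618, edgeR). It passed with DESeq2 (1.10, adjusted p = 0.0182) and without the filter (1.06, adjusted p = 0.0471, edgeR), but not from FPKM (0.51, adjusted p = 0.216, limma). It also passed without WT day 0 library 2, Notch1-/- day 0 library 1, or Notch1-/- day 6 library 1 or 3 (adjusted p of 0.0181 to 0.0488, edgeR). For Bmp7 the value was -1.23 (adjusted p = 0.118, edgeR), and with the replicate number as a block it was -1.04 and passed (adjusted p = 0.0412). Without WT day 0 library 1, which had 20.2 CPM, the value was -0.30. Bambi also did not overlap on counts, though its lowest Notch1-/- and highest WT library both round to 12.5 CPM. It did not pass (0.36, adjusted p = 0.428, edgeR). The remaining values ran from 0.14 for Smad6 and Smad7 to 0.69 for Id4. The median over the 8 genes was 0.50, beside -0.08 over all loci.

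Feeder fibroblast markers varied between the day 0 libraries and differed between the genotypes at day 6. The 16 markers matched of 20 summed to 503, 1400 and 2140 CPM in Notch1-/- day 0 libraries 1 to 3 and to 1240, 754 and 2510 CPM in the same-numbered WT libraries. Bmp2, Id2 and Id4 had the same order as these sums in Notch1-/- cells. In WT cells Bmp2 and Id2 were highest and Id4 lowest in library 2, where the sum was lowest. In embryoid bodies the sums were 76.9, 80.6 and 121 CPM in Notch1-/- libraries and 634, 713 and 638 CPM in WT libraries. Of the 16 markers, 2 were higher and 7 lower in Notch1-/- than in WT embryoid bodies, where 13.7% of all loci were higher and 14.4% lower. At day 0, 0 markers differed in either direction, where 9.56% of all loci did. By day 6 in WT cells 2 were higher and 10 lower, where 18.4% of all loci were higher and 24.7% lower. Postn ranged from 29.3 to 79.3 CPM in WT day 0 and from 111 to 163 CPM in WT day 6 libraries. Thy1 ranged from 24.6 to 71.2 CPM and from 3.49 to 3.81 CPM in the same libraries. The day 6 sums therefore cannot be read as an amount of feeder cells. The part of these markers in the values of the set was not tested.

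**Figure D3:**
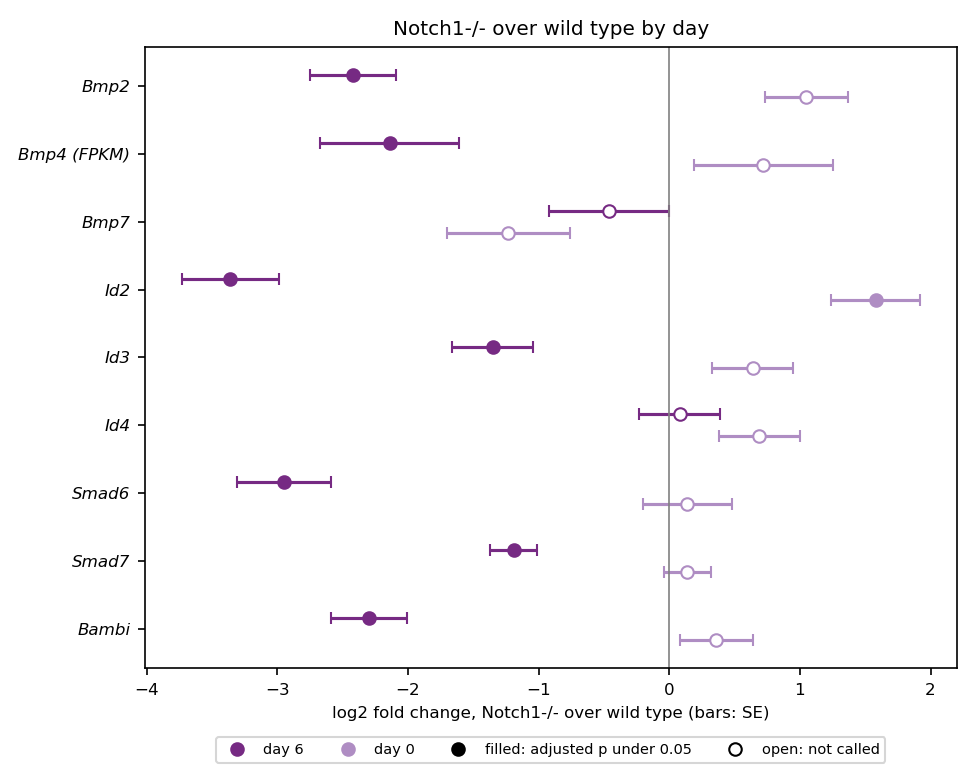
Log2 fold change of Notch1-/- over WT (points) with its SE (bars) at day 6 and at day 0 for 9 genes, from counts and, for Bmp4, from log2(FPKM + 1); filled points passed adjusted p under 0.05. At day 6 the values reach -3.36 for Id2, whereas at day 0 they lie between -1.23 for Bmp7 and 1.58 for Id2.

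The Notch1-/- embryoid body libraries were less alike than the WT ones. Library 3 was the lowest of the 3 Notch1-/- day 6 libraries for 8 of 9 genes, all but Id2, with 20.8 CPM of Bambi against 49.5 and 56.8 CPM in libraries 1 and 2. The summed markers of cardiac and lateral mesoderm were also lowest there, at 107 CPM beside 366 and 331 CPM in libraries 1 and 2. The 6 genes called lower in Notch1-/- embryoid bodies stayed called in every fit that left out a library, with adjusted p of at most 0.0342 (Id3, edgeR).

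Markers of several cell types differed between the genotypes at day 6 together with the set. Of 9 markers of endothelium and blood, 8 were lower in Notch1-/- embryoid bodies, with sums of 41.1 to 56.6 CPM in Notch1-/- and 211 to 295 CPM in WT libraries. The defining endothelial marker Cdh5 lay between 0.976 and 1.68 CPM in Notch1-/- libraries and between 39.7 and 59.9 CPM in WT libraries. Of 9 markers of visceral endoderm, 6 were lower, with sums of 23.7 to 55.7 CPM in Notch1-/- and 205 to 283 CPM in WT libraries. Of 7 markers of cardiac and lateral mesoderm, 5 were lower and 0 higher. Markers of the primitive streak and nascent mesoderm ran the other way, with 5 of 7 higher, and sums of 51.7 to 116 CPM in Notch1-/- and 38.3 to 40.7 CPM in WT libraries. In FPKM, with Evx1, which had no counts, these markers summed to 239 to 573 in Notch1-/- and to 50.8 to 74.5 in WT libraries. Of 6 stem cell markers 2 were higher and 0 lower, with sums of 614 to 1020 CPM in Notch1-/- and 385 to 529 CPM in WT libraries. Their FPKM sums were 505 to 650 in Notch1-/- and 163 to 220 in WT libraries. Of 7 neural markers 1 was higher and 2 lower, with sums of 44.8 to 77.8 CPM in Notch1-/- and 35.0 to 44.7 CPM in WT libraries. Of all loci, 13.7% were higher and 14.4% lower in this comparison, and the neural markers called higher were near the first share. The part of these cell types in the values of the set was not tested.

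The other genes induced by BMP were mostly lower in Notch1-/- embryoid bodies as well. Their list shares Tbx20, Nkx2-5, Hand1, Hand2 and Gata4 with the markers of cardiac and lateral mesoderm, so the lists are not separate observations. Of 24 listed, 18 were tested on counts, of which 0 were higher and 12 lower, with a median log2 difference of -1.67, where 13.7% of all loci were higher and 14.4% lower. In Notch1-/- cells 4 were higher and 7 lower at day 6 than at day 0, where 17.2% of all loci were higher and 18.7% lower. In WT cells 12 were higher and 3 lower, where 18.4% of all loci were higher and 24.7% lower. The change differed between the genotypes for 8, each of them lower in Notch1-/- cells, where 4.92% of all loci were. Tbx20, a transcription factor of the early heart, averaged 22.5 ± 13.5 CPM in Notch1-/- and 265 ± 70.3 CPM in WT embryoid bodies (SD, n = 3 each). Its log2 difference was -3.56 (SE 0.49, adjusted p = 0.000228, edgeR). Atoh8, a helix-loop-helix factor, averaged 0.794 ± 0.268 CPM in Notch1-/- and 9.28 ± 1.28 CPM in WT embryoid bodies, with a difference of -3.55 (SE 0.40). Gata2, a factor of blood progenitors, averaged 4.04 ± 1.84 CPM in Notch1-/- and 17.6 ± 3.16 CPM in WT embryoid bodies, with a difference of -2.12 (SE 0.31). Dlx5, a homeobox factor, was close to the detection limit, at 0.00757 ± 0.00745 CPM in Notch1-/- and 0.565 ± 0.035 CPM in WT embryoid bodies.

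Hand1 and Hand2, factors of lateral mesoderm and heart, had no usable counts because all their exon bases were shared with other loci; they are named here after their values had been seen. Hand1 had 36.6, 26.3 and 6.55 FPKM in Notch1-/- day 6 libraries, against 284, 239 and 171 FPKM in WT day 6 libraries. Hand2 had 2.45, 1.78 and 0.654 FPKM in Notch1-/- day 6 libraries, against 34.2, 37.8 and 26.3 FPKM in WT day 6 libraries. Neither overlapped, and the log2(FPKM + 1) difference was -3.52 for Hand1 (SE 0.57, adjusted p = 0.00122, limma) and -3.73 for Hand2 (SE 0.24, adjusted p = 1.79e-06, limma).

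Receptors and receptor-activated SMADs were divided. Of 16 listed, 15 were tested, of which 2 were higher and 4 lower in Notch1-/- than in WT embryoid bodies (median -0.17). The shares over all loci were 13.7% higher and 14.4% lower. By day 6, 5 of them were higher and 1 lower in Notch1-/- cells, a total near the 35.9% of all loci called, and 12 were higher and 2 lower in WT cells, where 43.1% of all loci were called. Bmpr2, the type II receptor of the BMPs, averaged 90.5 ± 2.50 CPM in Notch1-/- and 168 ± 6.25 CPM in WT embryoid bodies, a log2 difference of -0.89 (SE 0.15, adjusted p = 0.000765, edgeR). The type I receptor Bmpr1a averaged 207 ± 1.97 CPM in Notch1-/- and 250 ± 4.12 CPM in WT embryoid bodies, and its difference of -0.27 did not pass (adjusted p = 0.206, edgeR). Acvrl1, the type I receptor of endothelial cells, averaged 2.37 ± 0.755 CPM in Notch1-/- and 41.5 ± 10.2 CPM in WT embryoid bodies, a difference of -4.13 (SE 0.48). Smad9 averaged 1.32 ± 0.0998 CPM in Notch1-/- and 6.40 ± 0.565 CPM in WT embryoid bodies, with 66.25% of its exon length shared with another locus. Smad1, Smad5 and Smad4 did not pass, with differences of 0.41, -0.33 and -0.06. The other called genes of the list were Bmpr1b at 1.91 (SE 0.56) and Acvr1 at -0.70 (SE 0.15). These last 5 genes are named after their values had been seen. Neo1, a co-receptor, was close in both, with a difference of -0.17 (adjusted p = 0.234, edgeR), and the co-receptor Hjv was low and higher in Notch1-/- cells, at 2.30 ± 1.31 CPM against 0.272 ± 0.0398 CPM in WT cells. Bmpr2 and Smad9 are counted in both this list and the list of induced genes.

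Of the other BMP family ligands, 11 of 15 were tested, of which 0 were higher and 3 lower at day 6 in Notch1-/- than in WT cells (median -0.33), beside 13.7% and 14.4% of all loci. Bmp5 averaged 11.2 ± 8.13 CPM in Notch1-/- and 74.9 ± 2.83 CPM in WT embryoid bodies, a log2 difference of -2.74 (SE 0.52, adjusted p = 0.0020, edgeR). Gdf6 averaged 0.908 ± 0.406 CPM in Notch1-/- and 6.69 ± 0.528 CPM in WT embryoid bodies, a difference of -2.88 (SE 0.41, adjusted p = 0.000306, edgeR). Gdf2, the third, stayed below 1 CPM in all groups, at 0.00548 ± 0.00481 CPM in Notch1-/- and 0.433 ± 0.0874 CPM in WT embryoid bodies. Gdf10, Bmp15 and Gdf5 did not pass at day 6, with values of -0.91, -1.47 and 0.80.

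The list of secreted BMP antagonists and modulators, whose members need not all act on the pathway in the same direction, held higher and lower genes. Of 20 listed, 17 were tested, of which 3 were higher and 4 lower in Notch1-/- than in WT embryoid bodies (median 0.06), beside 13.7% and 14.4% of all loci. Fst, which encodes follistatin, averaged 305 ± 72.2 CPM in Notch1-/- and 21.5 ± 13.2 CPM in WT embryoid bodies, a log2 difference of 3.83 (SE 0.66, adjusted p = 0.00108, edgeR). Chrdl1 averaged 1.91 ± 1.23 CPM in Notch1-/- and 0.25 ± 0.0475 CPM in WT embryoid bodies, a difference of 2.93 (SE 0.55). Fstl1, a secreted follistatin-like protein, averaged 161 ± 7.70 CPM in Notch1-/- and 535 ± 15.6 CPM in WT embryoid bodies, a difference of -1.73 (SE 0.32). Sost was low in both, at 0.224 ± 0.201 CPM in Notch1-/- and 1.27 ± 0.187 CPM in WT embryoid bodies, and passed (adjusted p = 0.0269, edgeR). Twsg1 did not pass, with a difference of 0.12 (SE 0.15).

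Intracellular modulators of SMADs were lower where they passed. Of 15 listed, 12 were tested, of which 0 were higher and 5 lower in Notch1-/- than in WT embryoid bodies (median -0.10), beside 13.7% and 14.4% of all loci. Smad3, a SMAD of the TGF-beta and activin branch, averaged 49.1 ± 7.96 CPM in Notch1-/- and 125 ± 8.95 CPM in WT embryoid bodies, a log2 difference of -1.35 (SE 0.20). Its partner Smad2 differed by -0.51 (SE 0.12, adjusted p = 0.00754, edgeR). The ubiquitin ligase gene Smurf1 differed by -0.84 (SE 0.15), with 70.76% of its exon length shared with another locus, while Smurf2 differed by -0.12 (adjusted p = 0.499, edgeR). Skil and the phosphatase gene Ppm1a did not pass, at 0.32 and 0.16. The other called genes of the list were Ctdspl at -1.16 (SE 0.35) and Zeb2 at -0.97 (SE 0.33), named after their values had been seen.

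**Figure D4:**
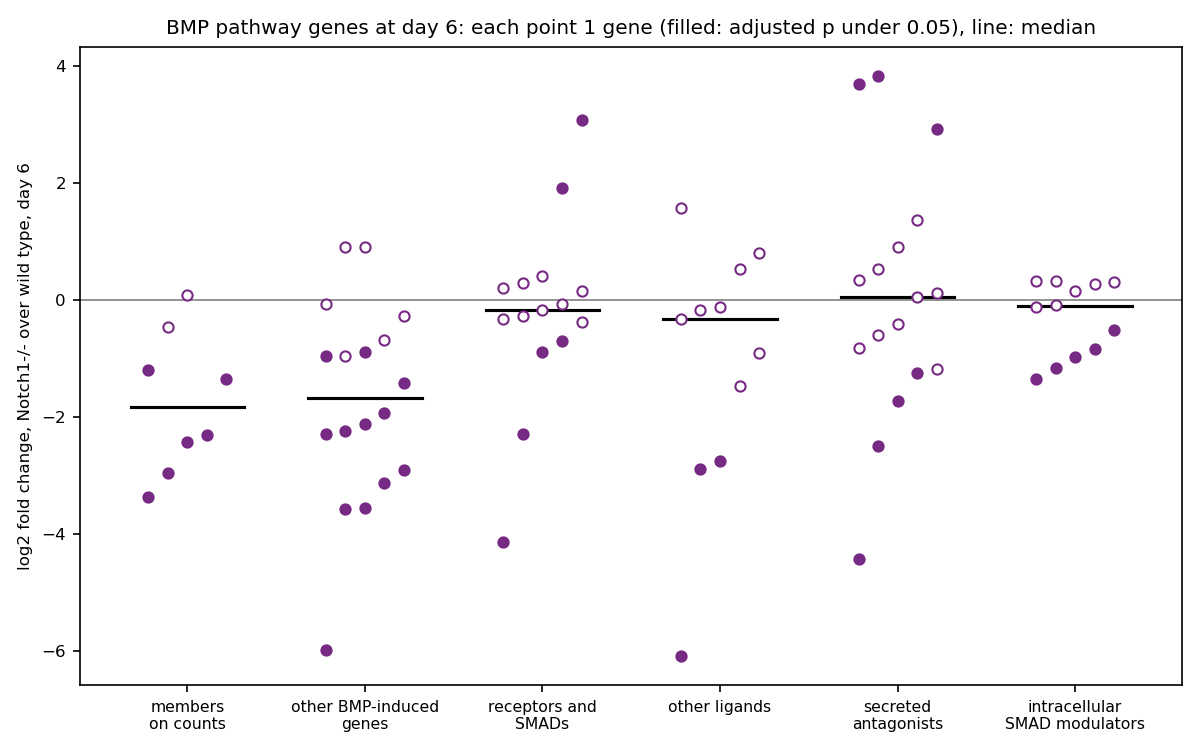
Log2 fold change of Notch1-/- over WT at day 6 for each tested gene of the set and of 5 BMP pathway lists (points; filled points passed adjusted p under 0.05), with the median of each group of genes as a line. The medians of the set (-1.83) and of the other induced genes (-1.67) lie lowest, and those of the other lists lie between -0.33 and 0.06.

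Levels of different genes were set beside each other per transcript length, in FPKM. In Notch1-/- embryoid bodies Id3 was highest of the 9 genes at 62.3 ± 10.8 FPKM, followed by Bmp4 at 16.2 ± 9.72 and Smad7 at 10.3 ± 2.02 FPKM, with Bmp7 at 9.23 ± 3.98 and Id2 at 7.13 ± 0.797 FPKM (SD, n = 3 each). The place of Bmp4 rests on FPKM that may hold antisense reads. In WT embryoid bodies Id3 was also highest, at 167 ± 4.42 FPKM, followed by Id2 at 76.5 ± 3.82 FPKM and Bmp4 at 63.9 ± 4.92 FPKM. There Smad6 at 31.3 ± 4.16, Bambi at 25.8 ± 3.37 and Smad7 at 24.9 ± 1.26 FPKM followed, with Bambi and Smad7 closer than their SDs. Bmp2 stood at 20 ± 1.52, Bmp7 at 13.2 ± 1.63 and Id4 at 3.71 ± 0.263 FPKM in the same WT libraries. In undifferentiated cells Id3, Id2, Smad7 and Bmp4 stood between 27.7 and 49.5 FPKM in Notch1-/- cells and between 13.3 and 38.0 FPKM in WT cells. The other 5 genes averaged at most 3.30 FPKM in Notch1-/- cells and at most 2.94 FPKM in WT cells at day 0.

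The genes most like Bmp2 and Bambi across the 4 group means were sought among 4767 expressed genes with any called difference, by the root mean square difference of centred log2 CPM. Gata3, a transcription factor, was closest to Bmp2 at 0.121, followed by Bambi at 0.208, Podxl at 0.326, Mex3b at 0.335 and Cobll1 at 0.358. Gata3 was also closest to Bambi at 0.155, followed by Bmp2 at 0.208, Mex3b at 0.220, Meis2 at 0.235 and Flrt3 at 0.242. Gata3 averaged 9.76 CPM in Notch1-/- and 35.6 CPM in WT embryoid bodies, and 3.18 CPM in Notch1-/- and 1.63 CPM in WT cells at day 0. Smad6 ranked 7 for Bmp2 and 9 for Bambi, whereas Smad7 ranked 3939 for Bmp2 and 3993 for Bambi. The likeness rests on 4 group means from the same 12 libraries and is a description. It could not be computed for Id1.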

How the data were processed

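Per the labels, total RNA was poly(A)-selected and sequenced on an Illumina instrument. Build mm9, DESeq, HTSeq 0.5.4p3, Cufflinks 2.1.1 and TopHat2 2.0.8 are listed in the submitters' processing notes, without roles, order or strand setting. The authors deposited unnormalised counts for each merged locus, an FPKM table for the same loci (normalised by the authors for length and library size) and the exon coordinates of 144343 transcripts. The files give no gene symbols. Loci were given symbols by matching the lengths of their exons and introns to annotated transcripts of another build, without converting coordinates. This named 18122 of 40039 loci, and 4 loci matched when looked up on a wrong chromosome and 41 at a wrong position. Reads touching 2 loci appear to be missing from the counts, so FPKM was used for Bmp4, Hand1 and Hand2, whose counts were unusable. Loci that share part of their exons stayed on counts. All 12 libraries, with 100637179 to 134662426 counts, entered 1 fit with a mean per group in edgeR 4.0.16 (R 4.3.3; quasi-likelihood test, TMM scaling, default filter, 23991 loci). Calls were Benjamini-Hochberg adjusted p under 0.05, two-sided, in 5 contrasts. FPKM was tested with limma 3.58.1 as log2(FPKM + 1) over 18505 loci with a mean of at least 0.1. CPM are counts scaled to the TMM-adjusted library totals. The 95% intervals of differences use the SE and 8 residual degrees of freedom. Replicates differed by 42.0 to 421 chi-square units per degree of freedom, far above counting error. Same-numbered Notch1-/- and WT day 0 libraries deviated together (r = 0.432, 0.317 and 0.251), a hint of pairing from the data only. These numbers are the replicate numbers of the library titles. The submitters' own library names carry other numbers, which mostly do not match between such libraries. The main fit did not pair them, and a block for the replicate number was run as an alternative. Alternatives were upper-quartile scaling, DESeq2 1.42.0, no filter, fits of the compared groups alone, a replicate block, leaving out each library, loci sharing under 50% of exon length, and FPKM. The genes, lists and promoter motifs were chosen with earlier results of these data known. Besides the set, Notch1 and the genes marked as named after their values had been seen, at most 6 genes per list were named. These were the genes with the smallest p for the difference between the genotypes' changes. The values of 1 antagonist so chosen are not reported here. The scripts were tested on simulated data.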

Additional observations from a re-analysis of the deposited data

Results flagged for a closer look

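The 7 results were singled out because the change from day 0 to day 6 differed between Notch1-/- and WT cells in a test of that difference. On the log2 scale, Notch1-/- minus WT, the difference was -4.94 for Id2, -3.47 for Bmp2, -3.09 for Smad6, -2.66 for Bambi, -2.0 for Id3 and -1.33 for Smad7 from counts (edgeR's quasi-likelihood test). For Bmp4 it was -2.86 from FPKM (limma). Id2 is the gene of these whose change had opposite, called signs in the genotypes, -2.43 in Notch1-/- cells and 2.50 in WT cells. The 7 values share the same 12 libraries and are not independent of one another.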

How the results depend on the processing

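The 6 genes called lower in Notch1-/- embryoid bodies, and the 6 whose change differed between the genotypes, were called under every alternative run on counts and with each library left out. Counts of called loci moved for the day 0 comparison, to 3714 with DESeq2, 706 with the 6 day 0 libraries alone and 1263 with FPKM, against 2294. They also moved for the day 6 comparison, to 11055 with the compared groups alone against 6741, and for the difference of the changes, to 4099 with DESeq2 against 2708. Genes of the set called higher at day 6 than at day 0 in Notch1-/- cells numbered 2 with the compared groups alone, and 3 with upper-quartile scaling or FPKM, both without Smad6, against 4. Those higher in Notch1-/- cells at day 0 numbered 2 with DESeq2, 2 without the filter and 0 with the day 0 libraries alone, against 1. With the replicate block 1 gene, Bmp7, was lower at day 0, against 0, and no other call on the set changed. Between the other pairs of groups, same-numbered libraries correlated at -0.058 to 0.254, and every sample matched its own number best in 3 of these 5 pairs, which is a hint from the data only. The block gave 3335 called loci for the genotypes at day 0, against 2294, and 7666 for the genotypes at day 6. It gave 9395 for the days in Notch1-/- cells, 11014 for the days in WT cells and 3230 for the difference of the changes. A block within the day 0 libraries alone, chosen after seeing the data, called 1752 loci and the same number of genes of the set as the main test. The Bmp4 difference of the changes kept its value of -2.86 without the FPKM filter but lost its call (adjusted p = 0.0511, limma).

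Leaving out 1 library at a time gave 1124 to 5983 called loci at day 0, 4285 to 8002 for the genotypes at day 6 and 1434 to 3943 for the difference of the changes. Genes of the set numbered 2 to 4 higher for the days in Notch1-/- cells, 0 to 1 lower for the days in WT cells, and 0 to 3 higher and 0 to 1 lower at day 0. Bmp4 ran from 1.62 to 2.46 for the days in WT cells and from -3.39 to -2.24 for the difference of the changes, and the first of these lost its call without WT day 0 library 3 (1.71, limma, at an adjusted p that rounds to the threshold). None of the values that changed sign was called. For the days in Notch1-/- cells, Id3 ran from -0.03 to 0.48 and Id4 from -0.07 to 0.29, with -0.05 under upper-quartile scaling. For the genotypes at day 0, Smad6 ran from -0.18 to 0.36, with -0.01 from FPKM, and Smad7 from -0.02 to 0.29. Id4 for the genotypes at day 6 ran from -0.09 to 0.25, and Bmp7 for the difference of the changes from -0.16 to 1.07. The cause of these shifts was not tested. Depth does not limit the set, whose lowest tested count was 364 (Bmp7), whereas shared exons do for Bmp4 and Id1.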
